A study of Mus musculus with 6 samples.

Results

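Nidogens and heparan sulfate proteoglycans were examined in RNA-seq counts from immortalized WT and AS podocytes. The group holds 10 genes of the 57132 in the count table. They were listed by name, with earlier results of these data known, and all 10 passed the filter on low counts. They are the nidogens Nid1 and Nid2, agrin (Agrn), perlecan (Hspg2), the syndecans Sdc1, Sdc2, Sdc3 and Sdc4, and the glypicans Gpc1 and Gpc4. The series compares 3 samples of the line IMWT (genotype Col4a3+/+) with 3 samples of the line IMAS (Col4a3-/-, the AS line), both derived from kidneys of male mice aged 8 weeks. Per the sample records, cells were kept at 33 °C with 20 U/mL interferon gamma and differentiated at 37 °C for 14 days without any treatment, whereas the study's methods give a shorter differentiation, another medium and a lower dose of interferon gamma that is withdrawn at the higher temperature. Both lines carry the H-2Kb-tsA58 transgene, a temperature-sensitive large T antigen under an interferon-inducible promoter. Each genotype is 1 cell line, so that genotype and line cannot be told apart. The samples of a line are numbered as sets, and as no source states that a set is a separate culture, p-values measure the spread between these samples, which may be technical.

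Basement membranes are sheets of matrix built on a laminin network and a type IV collagen network. Nidogens bind both networks and link them, and the secreted proteoglycans agrin and perlecan are held in the same sheet, where their heparan sulfate chains carry negative charge and bind growth factors. In the glomerular basement membrane, agrin is the main heparan sulfate proteoglycan of the mature membrane, while perlecan is more prominent in the mesangial matrix and during development. Syndecans span the cell membrane, and glypicans are tied to it by a lipid anchor, so that both display heparan sulfate on the cell itself. The core proteins encoded by the genes counted here receive these chains in the Golgi apparatus, and counts of RNA do not show how much protein or chain is made.

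Total counts lay between 45417221 and 54290968 per sample. Levels are given as CPM (counts-per-million of the TMM-scaled library size), and differences as the log2 fold change of AS over WT from edgeR's quasi-likelihood test on 16263 genes, with Benjamini-Hochberg adjustment over all of them. Col4a3, the gene disrupted in the AS line, was at 938, 1052 and 1272 CPM in the WT samples and at 62.4, 61.2 and 82.9 CPM in the AS samples. The podocyte label was checked against 12 markers. Tcf21, a transcription factor of podocytes, had 0 counts in every sample, so that a level of at most 0.0209 CPM is possible in the WT line and of at most 0.0198 CPM in the AS line (set by 3 counts per group). Nphs1, which encodes nephrin, averaged 0.466 CPM in the WT line and 0.0407 CPM in the AS line, so that these podocyte genes were absent or low in both lines. Of the 9 podocyte markers tested, 6 were lower and 2 higher in AS podocytes at an adjusted p under 0.05. Over all genes tested, 40.1% passed this threshold, 20.4% as higher and 19.6% as lower, which is the background of each marker count given here. The summed level of the 12 podocyte markers was 2144 to 2464 CPM in WT and 1702 to 1841 CPM in AS samples, most of it from Synpo, Actn4 and Kirrel. The 8 mesangial and fibroblast markers summed to 5773 to 7932 CPM in WT and 6850 to 7955 CPM in AS samples, mostly Acta2, with 1 marker higher (Col1a1) and 2 lower (Pdgfrb and Thy1). The 5 parietal epithelial markers summed to 377 to 472 CPM in WT and 279 to 305 CPM in AS samples, and 2 of them, Scin and Krt18, were lower. The tubular markers summed to 247 to 308 CPM in WT and 197 to 307 CPM in AS samples, nearly all of it Lrp2, with Umod and Aqp2 at 0 counts. Endothelial markers summed to at most 1.67 CPM and leukocyte markers to at most 15.4 CPM in any sample, with Adgre1 at 0 counts. In bulk samples fewer cells of a type and less RNA per cell cannot be told apart, and the part of these markers in the results was not tested.

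AS podocytes held more RNA for agrin, perlecan, syndecan-1 and syndecan-2 and less for nidogen-1, syndecan-3, syndecan-4 and glypican-4 than WT podocytes. Of the 10 genes, 4 were higher and 4 were lower at an adjusted p under 0.05, and Nid2 and Gpc1 did not pass. Sdc1 was at the edge of the threshold (adjusted p = 0.0489, edgeR), and its groups overlapped. With 1 sample left out, the call was lost in 4 of 6 fits for Sdc1 and in 1 of 6 for Gpc4. Over all genes tested, 40.1% passed this threshold, 20.4% as higher and 19.6% as lower. Among the 2068 genes expressed at least as highly as Gpc1, the lowest of the 10, 50.9% passed. For 7 of the 10 genes the WT range and the AS range of CPM were separate, against 52.3% of all genes tested and 63% of the 2068 highly expressed ones. The log2 fold changes of the 10 genes lay between -0.82 and 0.87, with a median of -0.015 where the median of all genes was 0.0061. None of the 10 therefore reached a fold change of 2, whereas 8 had an unadjusted p under 0.05 with edgeR, DESeq2 and limma-voom alike. At an unadjusted p under 0.05 with a fold change over 2, 12.1% of all genes passed.

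**Figure D1:**
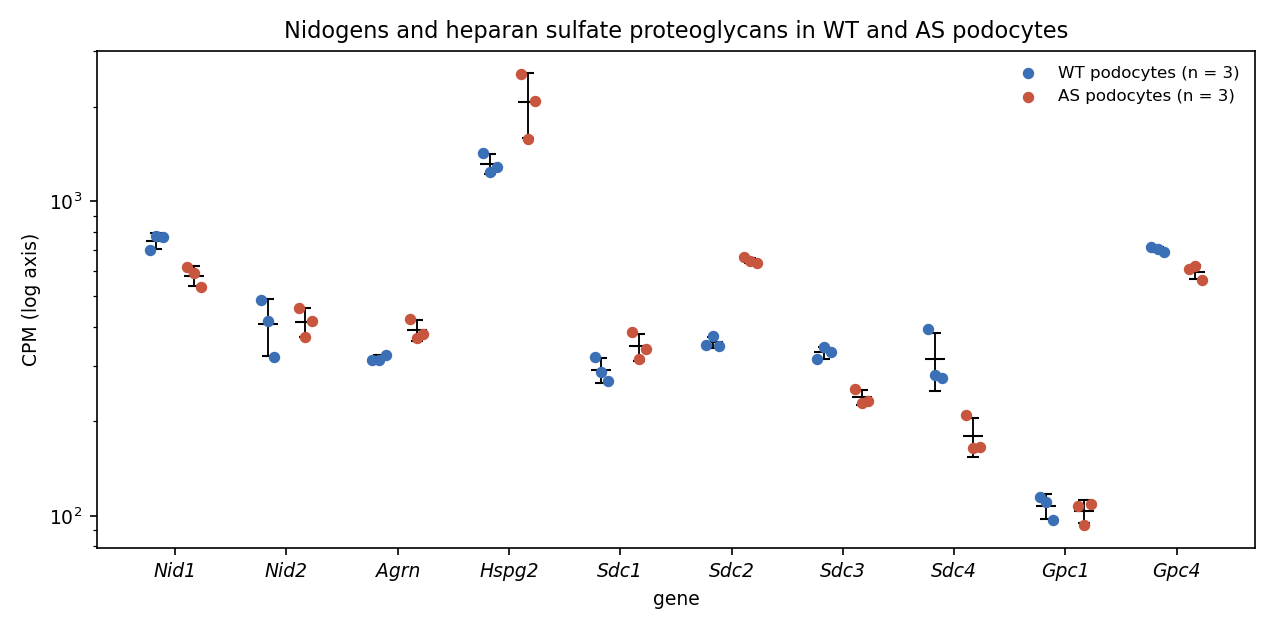
CPM on a log axis of the 10 genes in 3 WT and 3 AS samples, where points are samples and bars give the mean ± SD (n = 3). Perlecan (Hspg2) had the highest CPM in both lines, Sdc2 showed the widest separation for its spread, and the groups overlapped in Nid2, Sdc1 and Gpc1.

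Nid1 (ENSMUSG00000005397.9, chromosome 13) encodes nidogen-1, the first described of the glycoproteins that join laminin to type IV collagen. It was at 700.2, 776 and 774 CPM in the WT samples and at 618, 590.5 and 535 CPM in the AS samples. All 3 AS samples lay below all 3 WT samples. Nid1 fell from 750.1 ± 43.2 to 581 ± 42.4 CPM (n = 3 each, SD), 0.775 times the WT level (log2 fold change -0.37, standard error 0.075, 95% interval -0.54 to -0.20, adjusted p = 0.00381, edgeR).

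Nid2 (ENSMUSG00000021806.5, chromosome 14) encodes nidogen-2, a close relative that can take the place of nidogen-1 in many basement membranes. It was at 487, 415 and 319 CPM in the WT samples and at 459, 371 and 416 CPM in the AS samples. The AS samples lay inside the range of the WT samples, which spread over 20.7% of their mean (SD over mean). Its log2 fold change came to 0.028 (standard error 0.14, adjusted p = 0.896, edgeR). The 95% interval ran from -0.28 to 0.34, so that a change within that range in either direction is compatible with these samples. The sign of this value changed with the samples used, being -0.12 without WT replicate 3 and 0.18 without WT replicate 1. Exons of Nid2 overlap those of Rtraf on the opposite strand, which had 23065 counts over the 6 samples against 121461 for Nid2, and as no source says whether strand was used in counting, reads of these genes may be mixed.

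Nidogen levels were compared per kilobase of exon (CPM per kb, with the exons of all transcripts merged). The summed level of both nidogens was 187 ± 11.9 CPM per kb in WT and 164 ± 12.0 CPM per kb in AS podocytes (n = 3 each, SD), with overlapping groups (exact permutation test, two-sided, p = 0.20). Nid1 made up 51.7%, 58.2% and 64.4% of this sum in WT samples, against 50.1%, 54.3% and 49.0% in AS samples. The difference of -6.98 percentage points did not exceed the spread between samples (exact permutation test, two-sided, p = 0.20, where 3 against 3 cannot go below 0.10). It was -3.85 percentage points without WT replicate 3 and -10.2 without WT replicate 1. In the AS line Nid1 was at 83.7 ± 6.11 and Nid2 at 80.2 ± 8.55 CPM per kb (n = 3 each, SD), with overlapping ranges, whereas in the WT line every sample of Nid1 was above every sample of Nid2 on this scale.

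Agrn (ENSMUSG00000041936.19, chromosome 4) encodes agrin, which anchors to laminin and binds dystroglycan on the cell. It was at 314, 314 and 325 CPM in the WT samples, a spread of 1.99% of the mean, and at 423, 367 and 379 CPM in the AS samples. Every AS sample was above every WT sample. Agrn rose from 318 ± 6.33 to 390 ± 29.2 CPM (n = 3 each, SD), 1.23-fold (log2 fold change 0.30, standard error 0.066, 95% interval 0.15 to 0.44, adjusted p = 0.00634, edgeR).

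Hspg2 (ENSMUSG00000028763.19, chromosome 4) encodes perlecan, the largest core protein of the group. It was at 1430, 1243 and 1288 CPM in the WT samples and at 2545, 1585 and 2093 CPM in the AS samples. The AS samples were all above the WT samples but differed widely among themselves, with AS replicate 1 highest, AS replicate 2 nearest to WT and a spread of 23.2% of the mean against 7.38% in WT. Hspg2 rose from 1320 ± 97.5 to 2074 ± 481 CPM (n = 3 each, SD), 1.57-fold (log2 fold change 0.65, standard error 0.15, 95% interval 0.32 to 0.98, adjusted p = 0.00654, edgeR). When samples were left out singly, the value ran from 0.47 to 0.81 and the adjusted p stayed at or below 0.0264 (edgeR).

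Per length, agrin and perlecan together were at 126 ± 6.64 CPM per kb in WT and 187 ± 36.6 CPM per kb in AS podocytes (n = 3 each, SD), 1.48 times the WT level. All 3 AS samples were above all 3 WT samples, the smallest p that 3 against 3 can give (exact permutation test, two-sided, p = 0.10). Hspg2 made up 72.9 ± 1.58% of the sum in WT and 77.2 ± 3.10% in AS podocytes (n = 3 each, SD), and these shares overlapped between the lines (exact permutation test, two-sided, p = 0.20). Agrn, Hspg2 and Sdc3 lie on chromosome 4, whose 683 genes with a mean log2 CPM over 2 had a median log2 fold change of -0.16. Relative to that median, Agrn was at 0.46 and Hspg2 at 0.81.

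The 250 bases upstream of the annotated starts of Agrn and Hspg2, which were both higher in AS podocytes, are shown from RefSeq (GRCm38.p6) to give the sequence context of these starts. Capitals mark GGGCGG and its reverse complement CCGCCC, the core of the GC box, with overlapping matches counted separately. The Agrn window is chr4:156197489-156197738 on the minus strand and the Hspg2 window is chr4:137468553-137468802 on the plus strand, both written 5′ to 3′.
Agrn: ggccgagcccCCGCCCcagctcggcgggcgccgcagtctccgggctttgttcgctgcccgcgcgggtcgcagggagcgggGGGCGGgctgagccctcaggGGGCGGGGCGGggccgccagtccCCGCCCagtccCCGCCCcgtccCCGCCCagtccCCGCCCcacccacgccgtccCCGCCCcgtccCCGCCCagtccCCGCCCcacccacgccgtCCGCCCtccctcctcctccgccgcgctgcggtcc
Hspg2: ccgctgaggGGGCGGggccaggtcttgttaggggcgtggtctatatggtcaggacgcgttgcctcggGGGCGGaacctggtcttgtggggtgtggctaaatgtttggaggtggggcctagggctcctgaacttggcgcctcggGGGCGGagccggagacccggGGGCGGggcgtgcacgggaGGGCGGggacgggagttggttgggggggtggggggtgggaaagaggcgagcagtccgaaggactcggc
These windows held 12 and 5 matches, 83.6% and 70% G or C, and 35 and 20 CpG dinucleotides. Of the 32851 RefSeq windows of this length, 32.7% held at least 1 match, and the medians were 52.4% G or C and 6 CpG. Neither window held CCAAT or TATAAA on either strand, which occur in 33.8% and 12.4% of all windows. RefSeq lists another start for Agrn, whose window held 2 matches. The counts do not show which start was used.

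Sdc1 (ENSMUSG00000020592.16, chromosome 12) encodes syndecan-1, the syndecan of many epithelia. It was at 320, 286 and 269 CPM in the WT samples and at 384, 317 and 338 CPM in the AS samples, where AS replicate 2 lay below WT replicate 1. Sdc1 was at 292 ± 25.9 and 346 ± 34.1 CPM (n = 3 each, SD), 1.19-fold higher in AS podocytes (log2 fold change 0.25, standard error 0.088, 95% interval 0.050 to 0.45, adjusted p = 0.0489, edgeR). This call was at the edge of the threshold. It was lost without AS replicate 1 (0.16, adjusted p = 0.200, edgeR), without AS replicate 3 (0.27), without WT replicate 2 (0.23) and without WT replicate 3 (0.19), and also with RLE normalization, while over all alternatives its adjusted p ran from 0.00459 with no filter on low counts to 0.200 (edgeR, DESeq2 and limma-voom).

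Sdc2 (ENSMUSG00000022261.7, chromosome 15) encodes syndecan-2, a syndecan typical of mesenchymal cells that takes part in matrix assembly. It was at 349.7, 372 and 348 CPM in the WT samples and at 664, 648 and 638 CPM in the AS samples. Every AS sample was far above the highest WT sample, and the spread was 3.85% and 2.07% of the mean in WT and AS podocytes. Sdc2 rose from 357 ± 13.7 to 649.9 ± 13.4 CPM (n = 3 each, SD), 1.82-fold (log2 fold change 0.87, standard error 0.059, 95% interval 0.73 to 1.00, adjusted p = 5.25e-06, edgeR). This was the largest increase and the smallest adjusted p of the 10 genes. The 431 genes of chromosome 15 with a mean log2 CPM over 2 had a median of 0.20, and relative to it Sdc2 was at 0.66.

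Sdc3 (ENSMUSG00000025743.15, chromosome 4) encodes syndecan-3, best known from the nervous system. It was at 316, 345 and 332 CPM in the WT samples and at 254, 229 and 233 CPM in the AS samples, without overlap. Sdc3 fell from 331 ± 14.4 to 239 ± 13.6 CPM (n = 3 each, SD), 0.721 times the WT level (log2 fold change -0.47, standard error 0.064, 95% interval -0.62 to -0.33, adjusted p = 0.000378, edgeR). Relative to the median of chromosome 4, the value was -0.31.

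Sdc4 (ENSMUSG00000017009.4, chromosome 2) encodes syndecan-4, which joins integrins in focal adhesions. It was at 393, 280 and 275 CPM in the WT samples and at 209, 164 and 165 CPM in the AS samples. WT replicate 1 was well above the other WT samples, and the lowest WT sample was still above the highest AS sample. Sdc4 fell from 316 ± 66.7 to 179 ± 25.3 CPM (n = 3 each, SD), 0.567 times the WT level (log2 fold change -0.82, standard error 0.14, 95% interval -1.14 to -0.49, adjusted p = 0.00170, edgeR). This was the largest decrease of the 10 genes, and it was -0.63 without WT replicate 1 and -0.95 without AS replicate 1, with an adjusted p of at most 0.0128 in each fit with 1 sample left out (edgeR).

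The windows upstream of Sdc4 and Sdc3, the syndecans that were lower in AS podocytes, are given in the same way, with capitals on GGGCGG or CCGCCC. The Sdc4 window is chr2:164443189-164443438 on the minus strand and the Sdc3 window is chr4:130792287-130792536 on the plus strand.
Sdc4: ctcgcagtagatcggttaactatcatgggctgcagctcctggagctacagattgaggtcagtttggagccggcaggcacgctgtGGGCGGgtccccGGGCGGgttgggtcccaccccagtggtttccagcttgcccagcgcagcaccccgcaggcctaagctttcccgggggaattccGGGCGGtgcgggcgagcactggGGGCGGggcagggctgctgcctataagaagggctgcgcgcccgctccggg
Sdc3: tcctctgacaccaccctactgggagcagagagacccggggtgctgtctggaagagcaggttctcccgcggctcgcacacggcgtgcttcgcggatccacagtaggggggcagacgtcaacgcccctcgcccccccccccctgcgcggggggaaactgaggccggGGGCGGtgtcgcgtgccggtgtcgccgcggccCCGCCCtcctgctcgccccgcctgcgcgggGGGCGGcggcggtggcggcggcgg
They held 4 and 3 matches, 68% and 76.4% G or C, and 19 and 32 CpG dinucleotides. The windows of Sdc1, Nid1 and Gpc4 held 3, 1 and 1 matches, so that all 7 of the 10 genes found in the table (all but Nid2, Sdc2 and Gpc1) had at least 1, whether their counts were higher or lower in AS podocytes.

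**Figure D2:**
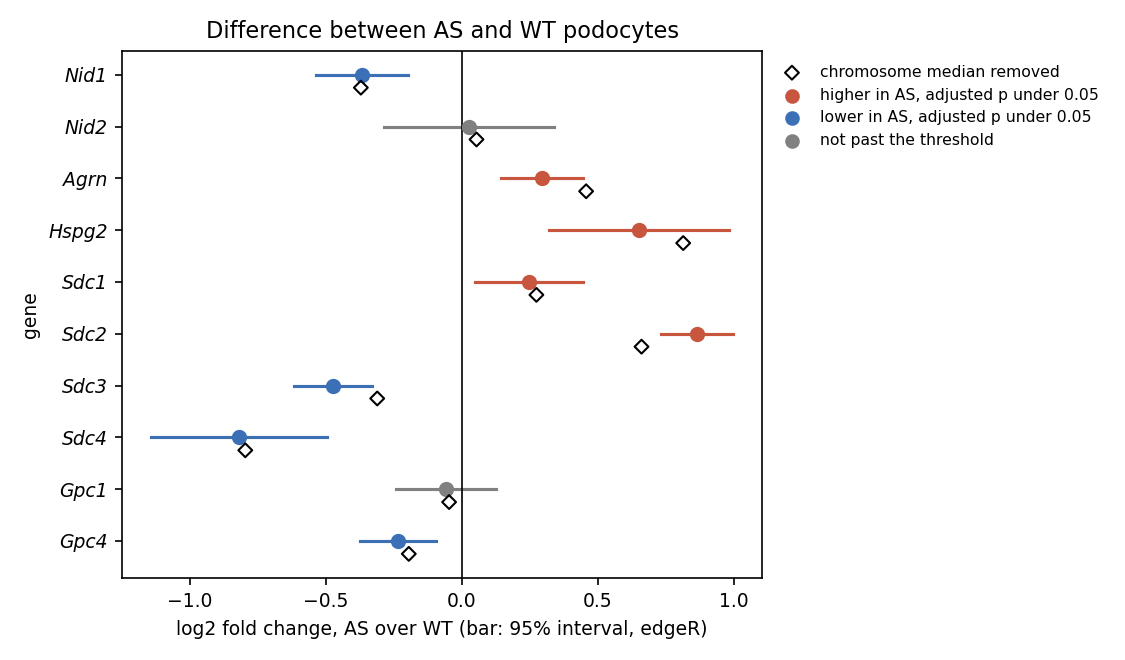
Log2 fold change of AS over WT for each gene, with its 95% interval (edgeR). Points are red (higher) or blue (lower) where the adjusted p was under 0.05 and grey otherwise, and open diamonds give the value after the median of the gene's chromosome is removed. Sdc2 at 0.87 and Sdc4 at -0.82 mark the extremes.

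The 4 syndecans differed in direction, so their mix was compared per length. The summed syndecan level was 357 ± 29.8 CPM per kb in WT and 385 ± 24.3 CPM per kb in AS podocytes (n = 3 each, SD), with overlapping groups (exact permutation test, two-sided, p = 0.30). Within this sum, the share of Sdc2 was 25.4%, 30.3% and 29.6% for WT samples, against 45.6%, 49.7% and 48.4% for AS samples. The share of Sdc4 was 39.6%, 31.6% and 32.5% for WT samples, against 19.8%, 17.5% and 17.4% for AS samples. In each WT sample Sdc4 thus exceeded Sdc2, an order that holds per length but not in CPM, where Sdc2 was above Sdc4 in 2 of the 3 WT samples. In each AS sample Sdc2 was more than any other syndecan. The shares of Sdc3 were 15.6 ± 1.77% in WT and 10.3 ± 0.0671% in AS podocytes, and those of Sdc1 were 21.4 ± 0.183% and 23.6 ± 0.952% (n = 3 each, SD). None of the 4 shares overlapped between the lines, and each gave the smallest p that 3 against 3 can give (exact permutation test, two-sided, p = 0.10). Shares within a sum are not independent of each other.

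**Figure D3:**
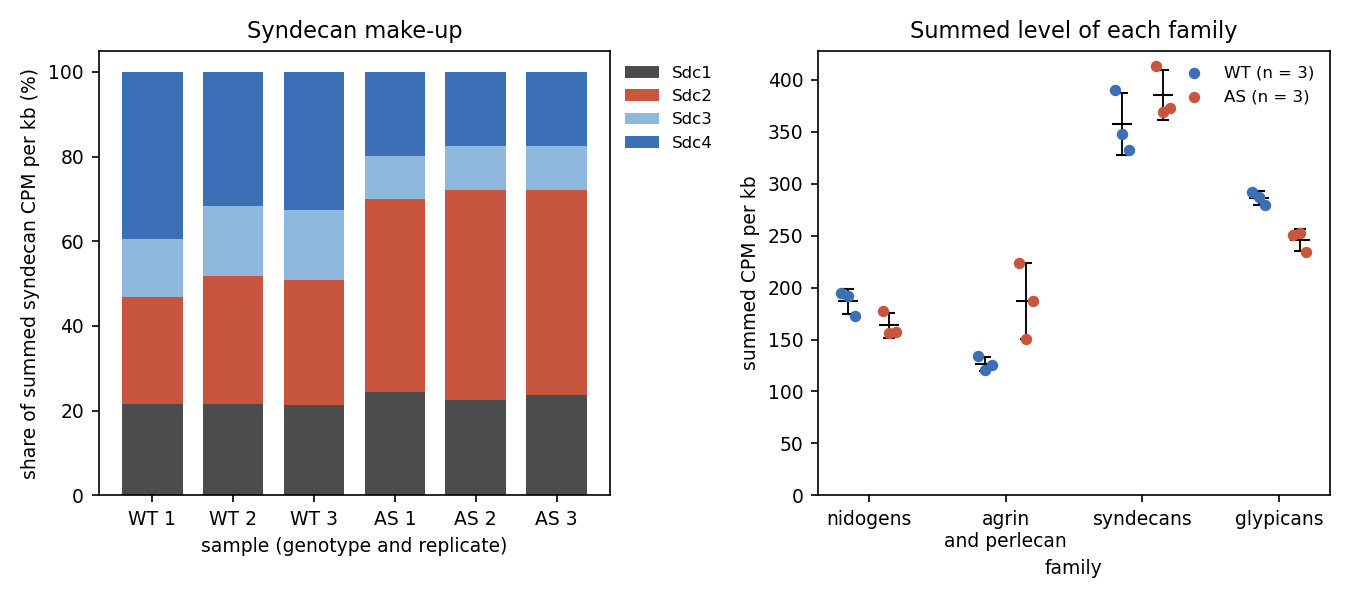
Left, the share of each syndecan in the summed syndecan CPM per kb, as stacked bars for each of the 6 samples. Right, the summed CPM per kb of each family, where points are samples and bars give the mean ± SD (n = 3). Sdc2 made up 25.4 to 30.3% in WT and 45.6 to 49.7% in AS samples, while the syndecan sums overlapped.

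Gpc4 (ENSMUSG00000031119.5, chromosome X) encodes glypican-4, a surface proteoglycan that binds Wnt and other growth factors. It was at 716, 705 and 690 CPM in the WT samples, a spread of 1.80% of the mean, and at 609, 622 and 564 CPM in the AS samples, without overlap. Gpc4 fell from 704 ± 12.6 to 599 ± 30.2 CPM (n = 3 each, SD), 0.851 times the WT level (log2 fold change -0.23, standard error 0.062, 95% interval -0.37 to -0.094, adjusted p = 0.0144, edgeR). Without AS replicate 3 the call was lost at -0.19 (adjusted p = 0.0665, edgeR), and over all alternatives the adjusted p ran from 0.00114 with DESeq2 to that value.

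Gpc1 (ENSMUSG00000034220.8, chromosome 1) encodes glypican-1, which binds fibroblast growth factors. It was at 115, 111 and 96.9 CPM in the WT samples and at 108, 93.5 and 109 CPM in the AS samples, with overlapping ranges. Its log2 fold change came to -0.058 (standard error 0.082, adjusted p = 0.613, edgeR), with a 95% interval of -0.24 to 0.13. Both glypicans together were at 286 ± 6.58 CPM per kb in WT and 246 ± 10.3 CPM per kb in AS podocytes (n = 3 each, SD), without overlap (exact permutation test, two-sided, p = 0.10, the smallest possible). Gpc4 made up 92.7 ± 0.485% of this sum in WT and 91.8 ± 0.937% in AS podocytes (n = 3 each, SD), and these shares overlapped.

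Per length, the 10 genes were among the more abundant transcripts of these cells. Their mean level per kilobase lay between the percentile 85.3 of the genes tested, for Gpc1, and the percentile 99.3, for Gpc4. In WT podocytes the order was Gpc4 (265 CPM per kb), Sdc4 (124), Nid1 (108), Sdc2 (101), Hspg2 (92.3), Nid2 (78.7), Sdc1 (76.6), Sdc3 (55.3), Agrn (34.2) and Gpc1 (20.9). From Sdc4 to Sdc1, the sample ranges of each gene and the next in this order overlapped. Such ranges do not pair the genes within a sample, and the order of these neighbours was not tested. In AS podocytes the order was Gpc4 (226 CPM per kb), Sdc2 (184), Hspg2 (145), Sdc1 (90.9), Nid1 (83.7), Nid2 (80.2), Sdc4 (70.5), Agrn (42.0), Sdc3 (39.8) and Gpc1 (20.0). There the ranges overlapped for neighbours from Sdc1 to Sdc4 and for Agrn with Sdc3. Gpc4 was first and Gpc1 last in both lines, without overlap with their neighbours.

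The heparan sulfate pathway around these core proteins was described by 76 further genes in 6 lists, of which 64 passed the filter. At an adjusted p under 0.05, 17 were higher and 14 lower in AS podocytes, with a median log2 fold change of -0.034 over the 64. That is 31 of 64, where 40.1% of all genes tested passed, and the median of all genes was 0.0061. These lists carry no test of their own.

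Among 12 other core proteins, 8 were tested, 4 were higher and 1 was lower, with a median log2 fold change of 0.26. Col18a1, whose product collagen XVIII is a further basement membrane heparan sulfate proteoglycan and the source of endostatin, was at 821, 675 and 526 CPM in the WT samples and at 1255, 1111 and 1215 CPM in the AS samples. It rose 1.77-fold (log2 fold change 0.82, standard error 0.14, adjusted p = 0.00129, edgeR). It lies on chromosome 10, whose genes had a median of 0.32, and relative to it the value was 0.50. Tgfbr3, the TGF-beta co-receptor betaglycan, rose from 14.7 ± 1.91 to 33.9 ± 2.84 CPM (n = 3 each, SD), 2.30-fold (adjusted p = 2.33e-05, edgeR). Nrp1, a receptor for semaphorins and VEGF that can carry a glycosaminoglycan chain, rose 1.37-fold (0.13 on the log2 scale relative to the median of chromosome 8), and Gpc2 rose 2.20-fold from a low 2.69 to 5.90 CPM. Tgfbr3 and Gpc2 lie on chromosome 5, whose genes had a median of 0.20, and relative to it they were at 0.998 and 0.93 on the log2 scale. The hyaluronan receptor Cd44 fell to 0.736 times the WT level. Gpc6 was at a log2 fold change of -0.20 and did not pass.

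Chains start from a linker of sugars on the core protein, which the polymerases then extend. Of 12 genes for this step, 2 were higher, 3 were lower and 7 did not pass, with a median log2 fold change of -0.083. The polymerases Ext1 and Ext2 were at -0.029 and -0.080 and did not pass. Xylt1, a xylosyltransferase that places the first sugar, was at 25.2, 20.3 and 24.9 CPM in the WT samples and at 13.3, 10.5 and 13.2 CPM in the AS samples. It fell to 0.526 times the WT level (log2 fold change -0.93, standard error 0.12, adjusted p = 0.000283, edgeR). Pxylp1, the phosphatase that removes phosphate from the linker xylose, was at 4.56, 4.36 and 3.77 CPM in the WT samples and at 19.6, 14.5 and 20.0 CPM in the AS samples. It rose 4.26-fold (log2 fold change 2.09, standard error 0.15, adjusted p = 6.90e-06, edgeR). Extl3, which adds the first N-acetylglucosamine of a heparan sulfate chain, fell to 0.714 times and Fam20b, the xylose kinase that Pxylp1 opposes, to 0.861 times the WT level, while B3gat3, which completes the linker, rose 1.28-fold. B3gat3 lies on chromosome 19, whose genes had a median log2 fold change of 0.19, and relative to it B3gat3 was at 0.17. Leaving out 1 sample at a time, the call for Fam20b was lost in 2 of 6 fits.

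Sulfation and epimerization give the chains their binding patterns. Of 20 genes for this step, 15 were tested, 3 were higher, 3 were lower and 9 did not pass, with a median log2 fold change of -0.0069. Hs6st2, a sulfotransferase that adds 6-O-sulfate, was at 427, 358 and 353 CPM in the WT samples and at 518, 478 and 484 CPM in the AS samples, and rose 1.30-fold (adjusted p = 0.00536, edgeR). Ndst1, which begins chain modification by N-deacetylation and N-sulfation, fell from 514 ± 31.7 to 424 ± 31.7 CPM (n = 3 each, SD), 0.824 times the WT level (adjusted p = 0.0145, edgeR). That call was lost without AS replicate 2 (adjusted p = 0.0600) and without AS replicate 3 (adjusted p = 0.0644, edgeR for both). The sulfotransferases of the last modification step went in both directions, as Hs3st1 and Hs3st3a1 fell to 0.720 and 0.619 times the WT level while Hs3st3b1 and the little-expressed Hs3st6, at 0.557 CPM in the WT and 1.58 CPM in the AS line, rose 1.32-fold and 2.84-fold. With 1 sample left out, the call was lost in 5 of 6 fits for Hs3st3b1 and in 2 of 6 for Hs3st6.

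The widest difference of the whole pathway was in Sulf1, an extracellular sulfatase that removes 6-O-sulfate from finished heparan sulfate and so changes how growth factors bind it. Sulf1 was at 360.2, 286 and 313 CPM in the WT samples and at 11.8, 11.0 and 14.1 CPM in the AS samples. It fell to 0.0385 times the WT level (log2 fold change -4.70, standard error 0.12, adjusted p = 1.07e-08, edgeR). Sulf2, its relative with the same activity, was at 337, 319 and 313 CPM in the WT samples and at 518, 472 and 509 CPM in the AS samples. It rose 1.55-fold (log2 fold change 0.63, standard error 0.063, adjusted p = 5.87e-05, edgeR), although its exons overlap those of Ncoa3 on the opposite strand. Per length, Sulf1 made up 33.9 ± 1.95% of the summed sulfatase level in WT and 1.26 ± 0.139% in AS podocytes (n = 3 each, SD), without overlap (exact permutation test, two-sided, p = 0.10, the smallest possible). The sum itself was 83.4 ± 5.23 and 86.2 ± 4.30 CPM per kb (n = 3 each, SD), with overlapping groups (exact permutation test, two-sided, p = 0.40). This comparison of the sulfatases was chosen after their values were seen.

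Sulf1 and Sulf2 belong to a list of 12 editing and degradation genes, of which 11 were tested, 4 were higher, 2 were lower and 5 did not pass, with a median log2 fold change of 0.16. The higher ones included Idua (1.52-fold) and Hgsnat (1.23-fold), enzymes of lysosomal breakdown. Hgsnat lies on chromosome 8 and Idua on chromosome 5, whose genes had medians of 0.32 and 0.20. Relative to these medians, Hgsnat turned to -0.023, while Idua was at 0.40. The lysosomal Naglu fell to 0.835 times the WT level, a call lost in 1 of 6 fits when samples were left out singly. The heparanase Hpse was at a log2 fold change of 0.86 and did not pass, with at most 45 counts in any sample.

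**Figure D4:**
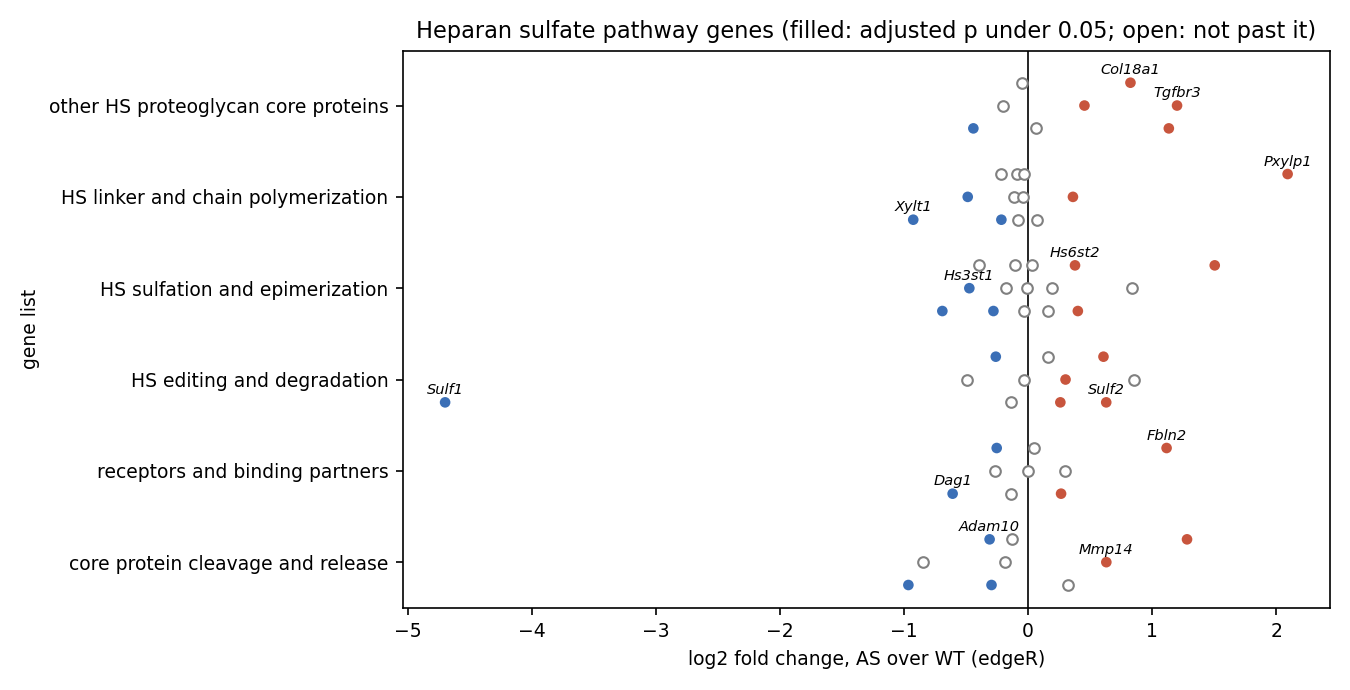
Log2 fold change of AS over WT (edgeR) for the 64 pathway genes tested, by list. Each point is a gene, filled red (higher) or blue (lower) where the adjusted p was under 0.05 and open otherwise. Most genes lie between -1 and 1, and Sulf1 at -4.70 and Pxylp1 at 2.09 lie farthest from 0.

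Of 10 genes for receptors and partners of the core proteins, 9 were tested, 2 were higher, 2 were lower and 5 did not pass, with a median log2 fold change of -0.00011. Fbln2, which encodes fibulin-2, a matrix protein that binds nidogen and perlecan, was at 1920, 1667 and 1653 CPM in the WT samples and at 3890, 3735 and 3734 CPM in the AS samples. It rose 2.17-fold (log2 fold change 1.12, standard error 0.080, adjusted p = 7.16e-06, edgeR). Dag1, which encodes dystroglycan, the cell surface receptor of agrin and perlecan, was at 988, 776 and 724 CPM in the WT samples and at 604, 495 and 533 CPM in the AS samples. It fell to 0.656 times the WT level (log2 fold change -0.61, standard error 0.12, adjusted p = 0.00306, edgeR). Of the adaptors that bind the short tails of syndecans, Sdcbp (syntenin) fell to 0.839 times and Gipc1 (synectin) rose 1.20-fold, while Cask was at -0.00011. Exons of Sdcbp overlap those of Nsmaf on the opposite strand, and Gipc1 lies on chromosome 8, relative to whose median it turned to -0.059. Sdcbp lies on chromosome 4, relative to whose median it was at -0.091 on the log2 scale. Lrp4, an agrin receptor, was at 0.30 and did not pass.

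**Figure D5:**
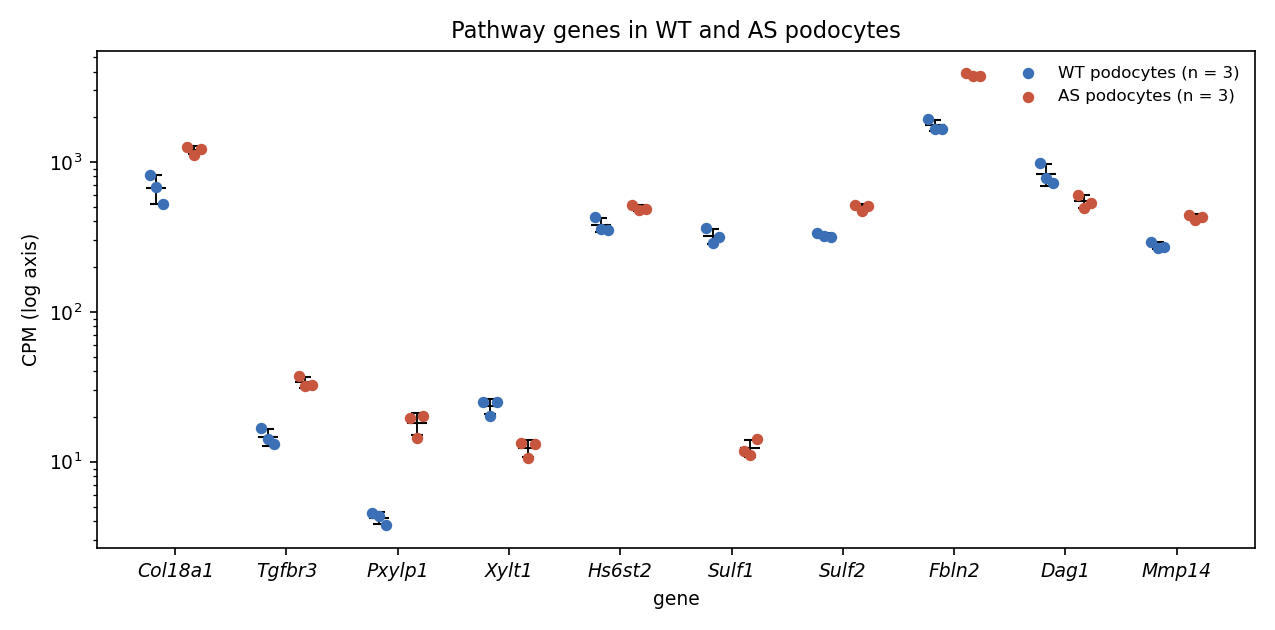
CPM on a log axis of 10 pathway genes in 3 WT and 3 AS samples, where points are samples and bars give the mean ± SD (n = 3). The genes shown were picked from those with an adjusted p under 0.05, and their groups did not overlap. Groups did not overlap in 37 of the 64 pathway genes tested, against 52.3% of all genes tested. Sulf1 was at 286 to 360.2 CPM in WT and at 11.0 to 14.1 CPM in AS samples.

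Core proteins are cut or released by proteases and a phospholipase. Of 10 genes for this step, 9 were tested, 2 were higher, 3 were lower and 4 did not pass, with a median log2 fold change of -0.19. Mmp14, a membrane-bound protease that can shed syndecan-1, rose from 276 ± 14.7 to 427 ± 18.2 CPM (n = 3 each, SD), 1.55-fold (adjusted p = 6.31e-05, edgeR). Adam10, another sheddase, fell to 0.806 times and Bmp1, which cuts a fragment from the end of perlecan, to 0.815 times the WT level (adjusted p = 0.00345 and 0.00621, edgeR). Mmp9 rose 2.43-fold from 1.67 to 4.04 CPM, and Gpld1, which cleaves lipid anchors, fell to 0.512 times from 1.29 CPM. With 1 sample left out, the call was lost in 3 of 6 fits for Mmp9 and in 4 of 6 for Gpld1.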

How the data were processed

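The data were RNA-seq libraries of the WT line (3 samples) and the AS line (3 samples). The authors deposited raw counts of reads per gene, without normalization. The mRNA libraries were amplified by 15 PCR cycles. The submitters' processing notes name FastQC, Trim Galore, STAR, edgeR and the build mm39, while the counting tool, its settings and the annotation are not given in sources used here. Among 57132 identifiers, 51880 were given a symbol, chromosome and exon length from GENCODE M21 (GRCm38) after the version was removed, and 0.363% of the counts fell on identifiers left without one. As the builds differ, coordinates are given only for RefSeq sequences.

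The 10 genes, the pathway and marker lists and the tests were chosen with earlier results of these data known. With edgeR 4.0.16 in R 4.3.3, low genes were removed by filterByExpr (default settings: a count of 10, and 15 in total), library sizes were scaled by TMM, and the two-sided quasi-likelihood test was run with genotype as its only term. Standard errors are approximate, as the ratio of a log2 fold change to the root of its F statistic, and the 95% interval uses the degrees of freedom of the test. This script was tested on simulated data. Shares per length were compared by exact permutation over samples. Detection limits reflect counting error alone and intervals the spread between these samples, as PCR copies cannot be told from separate molecules. Replicate pairs differed by more than sampling noise (chi-square per degree of freedom 9.78 to 49.9). Named genes were the 10 genes, Col4a3, up to 4 genes per pathway list with the smallest adjusted p under 0.05, genes needed to account for a count of 5 or fewer, and the 3 genes most like the largest increase and decrease. Other pathway genes and markers, such as Hs3st3b1, Hs3st6, Idua, Naglu, Ext1, Ext2, Hpse, Gpc6, Lrp4 and Cask, were named after their values were seen. Single genes counted in a list but not named are not reported here. Alternatives were RLE normalization, library size only, DESeq2 1.42.0, limma-voom (limma 3.58.1, the tool the study names), no filter, a filter at a mean CPM of 1, leaving out each sample, blocking on the replicate number, chromosome medians removed, the study's thresholds, and other lengths.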

Additional observations from a re-analysis of the deposited data

How the results depend on the processing

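For the 10 genes, 7 of 140 alternative values lost the threshold and 3 changed direction, while the 10 values with chromosome medians removed carry no call. With each sample left out, Nid2 ran from -0.12 to 0.18, being reversed without AS replicate 1 (-0.059) and WT replicate 3, and Gpc1 from -0.13 to 0.0043, being reversed without AS replicate 2. Neither passed the threshold in any of these fits. Sdc1 ran from 0.16 to 0.32 and lost the threshold in 4 of 6 fits, and Gpc4 from -0.27 to -0.19, losing it in 1. Sdc1 also lost the threshold at 0.24 with RLE normalization (adjusted p = 0.0591, edgeR) and at 0.24 with a mean CPM of at least 1 (adjusted p = 0.0520, edgeR). With chromosome medians removed, Agrn moved to 0.46, Sdc2 to 0.66 and Sdc3 to -0.31, by construction. Without a length correction, the difference in the share of Sdc3 moved to -8.77 and that of Sdc4 to -11.6 percentage points, from -5.24 and -16.3. The thresholds of the study (fold change over 2, unadjusted p under 0.05) were applied to the edgeR fit, whereas the study used them with limma-voom. The number of genes called then moved from 6517 to 1966 and that of the 10 genes from 8 to 0 (8 without the fold limit, with edgeR, DESeq2 and limma-voom). In all other fits 6 to 8 of the 10 genes and 25 to 37 of the pathway genes were called, the lowest both without AS replicate 3. Of 312 values for 24 pathway genes, up to 4 per list with the smallest adjusted p, 307 kept their direction and call. The other 5 lost the threshold, for Mmp9 and Ndst1. Among called genes outside this set, with 1 sample left out, Hs3st3b1 lost its call in 5 of 6 fits and Gpld1 in 4. Fam20b and Hs3st6 lost theirs in 2 each and Naglu in 1, while Cd44 and Idua kept theirs in all 6. The replicate numbers shared between the lines are not stated to mark a shared culture or day. The correlation of deviations from group means was 0.147, 0.0939 and 0.0526 for samples of the same number and between -0.130 and 0.0571 for different numbers, and not every sample correlated best with its own number. A replicate block called 7066 genes, 8 of the 10 and 36 pathway genes. Depth limits only pathway genes near 0 counts, since each of the 10 genes had at least 4472 counts in every sample.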

Other observations

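Among the genes tested, those whose pattern over the 6 samples was most like that of Sdc2, by the mean absolute difference of centred log2 CPM, were Nudt4 (0.018), Lipa (0.024) and Slc38a2 (0.031). Their log2 fold changes were 0.88, 0.85 and 0.83. For Sdc4 they were Adam22 (0.035), Tspan18 (0.048) and Acsl1 (0.054), with log2 fold changes of -0.78, -0.76 and -0.72. The measure takes in both the difference between the lines and the spread within them.

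Of the pathway genes, 12 did not pass the filter on low counts. Gpc5 had 10 counts over the WT samples and 0 over the AS samples, Spock3 8 and 0, Hs6st3 7 and 0, Hs3st2 3 and 0, and Spock1 2 and 0. Hs3st5 had 39 and 17 counts, Hs3st4 20 and 11, Musk 14 and 8, Hpse2 8 and 2, Ndst4 7 and 2, and Srgn 4 and 3. Mmp7 had 0 counts in every sample.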
